A study of Drosophila melanogaster with 2 samples.

Results

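Binding calls of the zinc finger protein CG4360 were examined at 10 genes that drive or restrain the cell cycle of Drosophila melanogaster. The genes were CycA, CycB, CycB3, CycD, CycE, Cdk1, stg, dap, E2f1 and Dp, taken by name from 13968 protein-coding genes, and all 10 were found in the annotation. A call was counted for a gene when its summit fell inside the gene or at most 5000 bp outside. The material was whole embryos aged 0 to 24 h, from flies with a transgene for CG4360 fused to eGFP, and chromatin was recovered with an antibody against GFP. There was 1 group with 2 biological replicates, both from flies with this transgene, and the control experiment that the labels point to was not analysed here. Whole embryos of this age range mix many tissues and both cycling and resting cells, so a call cannot be placed in a cell type or a phase of the cycle.

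Cyclins are the unstable partners of cyclin-dependent kinases, and each wave of cyclin drives 1 step of the cycle. CycD with its kinase promotes growth and entry into the cycle, and CycE with Cdk2 starts DNA replication. E2f1 and Dp form the transcription factor that turns on genes for replication, CycE among them, and dap encodes the inhibitor that blocks CycE with Cdk2 when embryonic cells stop dividing. CycA, CycB and CycB3 act with Cdk1 to bring cells into and through mitosis, and stg encodes the Cdc25 phosphatase that switches Cdk1 on. In the fly embryo, transcription of stg times the divisions after the early syncytial cycles. Loss of CycE expression, together with inhibition by the product of dap, ends these divisions. The genes are taken here as 5 S-phase regulators (CycD, CycE, E2f1, Dp, dap) and 5 mitotic regulators (CycA, CycB, CycB3, Cdk1, stg).

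The sequences below lie at calls that hold the CAA repeat. Each is read 5′ to 3′ in the direction of transcription of the named gene. The build is dm6 (RefSeq copy of release 6 of the assembly). All 7 stretches lie on the minus strand, and capitals mark the word CAACAAC or its reverse complement GTTGTTG, which was found within 50 bp of 45.1% of all 5692 conservative summits. They were selected for holding the word, and are shown to compare how the repeat is laid out at the cyclins with the strongest calls and at weaker sites. The calls of 730.3 and 248.7 are in the ranked list only, as described with E2f1.
CycA, 5′ UTR, chr3L:11833184-11833213, signal 1201.7: agcacaaaaCAACAACAACggcagcagcag
CycE, start of isoform CycE-RB, chr2L:15731855-15731955, signal 944.9: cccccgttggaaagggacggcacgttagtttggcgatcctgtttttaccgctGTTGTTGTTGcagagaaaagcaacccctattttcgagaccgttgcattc
E2f1 window, intron of InR, chr3R:21618486-21618586, signal 730.3: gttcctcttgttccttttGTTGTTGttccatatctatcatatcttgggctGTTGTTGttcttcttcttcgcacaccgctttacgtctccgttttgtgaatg
E2f1, intron, chr3R:21630796-21630896, signal 248.7: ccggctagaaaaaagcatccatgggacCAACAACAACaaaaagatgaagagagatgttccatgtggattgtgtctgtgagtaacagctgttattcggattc
E2f1, coding sequence, chr3R:21626262-21626362, signal 192.7: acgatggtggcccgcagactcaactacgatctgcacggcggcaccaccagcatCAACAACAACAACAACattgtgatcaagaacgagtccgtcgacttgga
CycE, intron, chr2L:15745650-15745679, signal 169.0: ccttcccaacacCAACAACaaacaaaaacg
stg, intron, chr3R:29254080-29254180, signal 154.8: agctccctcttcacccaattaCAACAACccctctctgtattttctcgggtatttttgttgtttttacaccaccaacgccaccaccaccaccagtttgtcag

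The stretches of CycA and of the CycE intron were 30 bases long and the others 101. Within 50 bp of the CycA summit lay 3 copies of the word, counting overlapping ones, and not all of them are in the stretch shown. The CycA and CycE-RB stretches each held an unbroken repeat of 10 bases, written as CAA in CycA and as its complement in CycE. The repeat in the coding sequence of E2f1 was the longest of the 7, with 16 bases in capitals. The signal there was lower than at the CycA and CycE-RB stretches. The call in the intron of InR held 2 separate words of 7 bases. Within the stretches shown, the length of the repeat did not follow the order of the signals of these 7 calls.

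Of the 10 genes, 9 had at least 1 call in the conservative list, against 44.2% of all protein-coding genes. The conservative list holds the calls whose rank repeated between the replicates at an irreproducible discovery rate (IDR) of at most 0.01. Together the 10 windows held 29 conservative calls in 192.5 kb, or 1.51 calls per 10 kb, against 0.414 per 10 kb over the genome. The genome value also covers sequence far from genes, and 37.7% of all conservative calls lay within 500 bp of a protein-coding start. The density over the windows of all protein-coding genes was not computed, so whether these 10 windows exceed other gene windows was not tested. The median signal of the 29 calls was 113, against 104 over all conservative calls. Signal is the value that the authors deposited for each peak, on a scale that the sources do not name. The share of genes with a call depends on gene length, and the windows of CycE and E2f1 were 30.6 kb and 50.6 kb, against a median of 12.2 kb. In the pooled list, the other list made from both replicates, 9 members had a call, against 46.6% of genes. Replicate 1 alone had 8 members with a call, against 37.7%, and replicate 2 alone had 8, against 32.7%.

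**Figure D1:**
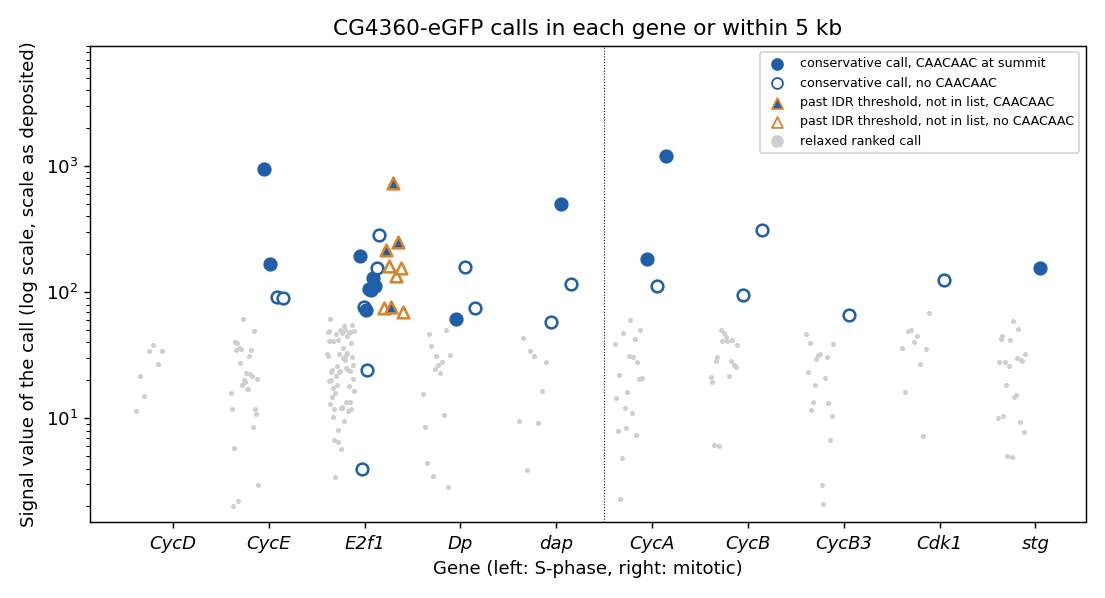
Signal value of each call (log scale) at the 5 S-phase genes on the left and the 5 mitotic genes on the right. Circles are conservative calls, triangles are calls past the IDR threshold that the conservative list does not hold, filled symbols have CAACAAC within 50 bp of the summit, and small grey points are relaxed ranked calls. CycE and CycA each have 1 call far above the rest of their own calls, CycD has relaxed calls only, and every triangle is at E2f1.

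A start of the gene itself was called at 6 of the 10 members (CycE, E2f1, Dp, dap, CycA and CycB3), with a conservative summit within 500 bp of an annotated transcript start, against 15.9% of protein-coding genes. These were 4 of 5 S-phase genes and 2 of 5 mitotic genes. Counted by start, 7 of 13 distinct starts of the S-phase genes and 2 of 8 of the mitotic genes had such a summit. The share over all annotated starts was not computed. The 15.9% is a share of genes, and a gene with more starts has more places for such a summit. Starts less than 500 bp apart can share 1 call, as both starts at the 5′ end of E2f1 did. With 5 genes in each class the difference was not tested.

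CycE, the cyclin of replication (FBgn0010382, 2L, 15727581 to 15748150, minus strand), carried 4 conservative calls, and all of them lay within the gene. The strongest, at 944.9, had its summit at 15731905, which is 121 bp upstream of the start of isoform CycE-RB and in an intron of the longer isoforms. It ranked 74 among all conservative calls, and the overlapping peaks had signals of 581.2 in replicate 1 and 356.8 in replicate 2, at ranks 67 and 104 of their lists. Both replicates thus placed this internal start near the top of their lists. By its highest signal CycE stood at rank 148 among the 13968 genes.

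The other CycE calls were near the upstream starts and were weaker. A call of 91.6 lay 99 bp upstream of the start shared by CycE-RC, CycE-RD and CycE-RF, over an exon of the noncoding gene lncRNA:CR44974. Its signals were 56.1 in replicate 1 and 40.8 in replicate 2, and only replicate 1 placed it in its thresholded list. A call of 169.0 followed 932 bp inside that start, with 93.4 and 74.1 in replicates 1 and 2, and a call of 90.9 lay 741 bp upstream of it, with 49.6 and 49.2. The outermost start, that of CycE-RA and CycE-RE, had no conservative summit within 500 bp, and the relaxed call there reached 39.6.

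The call of 91.6 was the only one of the 29 with letters of the E2F type near its summit. The words searched on both strands were TTTGGCGC, TTTCCCGC, TTTGCCGC and TTTCGCGC, and 2.23% of all conservative summits had at least 1 of them within 50 bp. A single call of 29 is near this share. The window of the call of 91.6 held 2 copies of TTTGGCGC and no CAACAAC, and it is shown because CycE is a known target of E2f1. Whether E2f1 binds there was not tested. The copies are in capitals, minus strand, dm6.
CycE, start of isoforms CycE-RC, CycE-RD and CycE-RF, chr2L:15746659-15746759: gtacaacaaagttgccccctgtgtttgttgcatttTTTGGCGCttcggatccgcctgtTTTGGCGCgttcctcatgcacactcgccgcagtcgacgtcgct

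**Figure D2:**
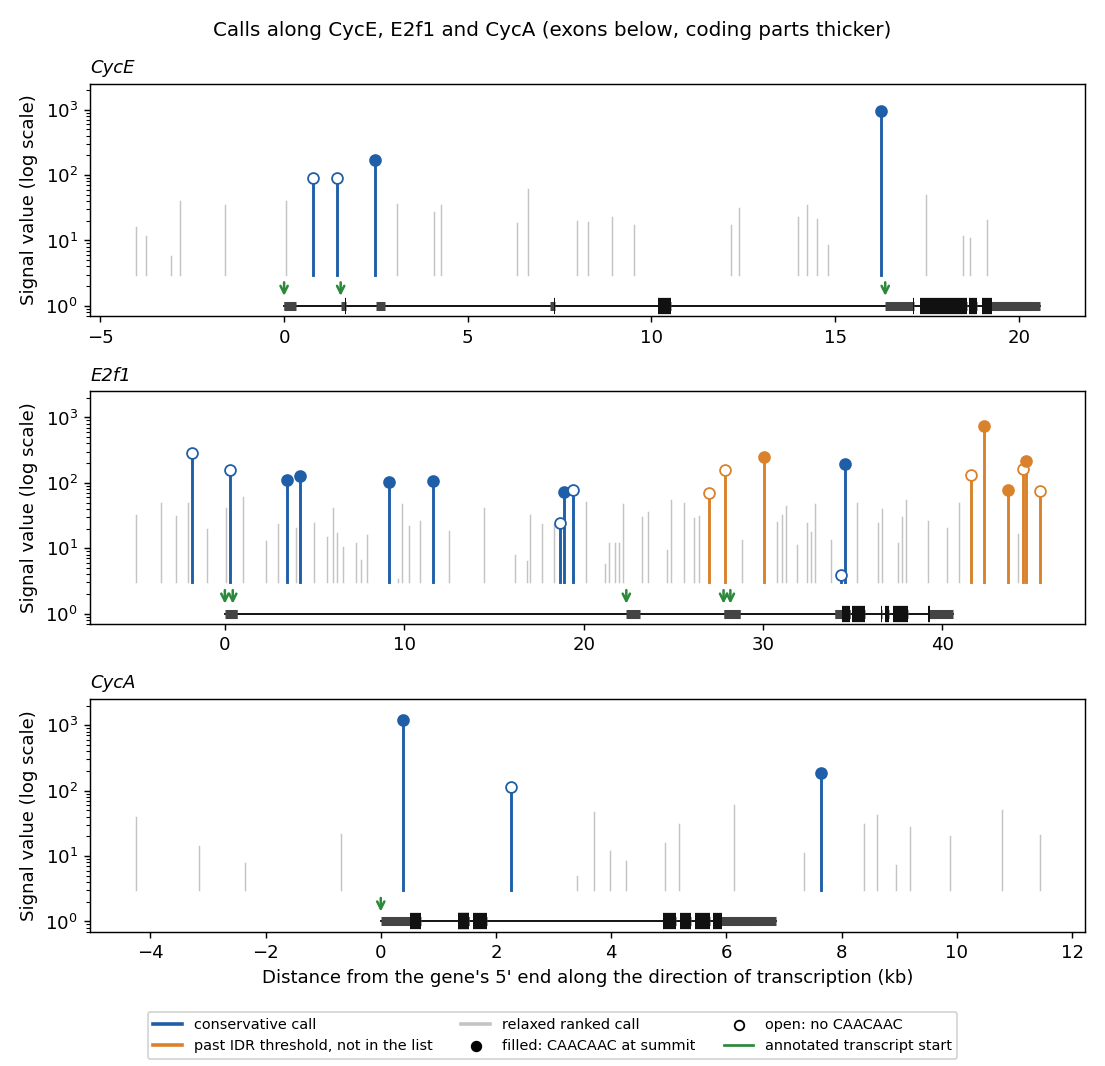
Signal of calls (log scale, lines drawn from a floor of 3) against distance in kb from the 5′ end of CycE, E2f1 and CycA along the direction of transcription, with exons below and annotated starts as arrows. The strongest CycE call sits at the most downstream start, the CycA call sits just inside the single start, and the calls of E2f1 spread over the gene, with those missing from the conservative list in its downstream part and beyond its 3′ end.

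E2f1, which with Dp forms the factor that turns on replication genes (FBgn0011766, 3R, 21620304 to 21660871, minus strand), had the most calls of any member. Its window was also the longest, and the density there, 2.18 calls per 10 kb, was close to that of dap, at 2.15. The 11 conservative calls of E2f1 ranged in signal from 3.9 to 284.3, and 44 protein-coding genes, itself included, had as many or more. Of the 11 calls, 10 lay within the gene and 7 of those in introns. The call of 284.3 was the exception. It lay 1837 bp upstream of the first start of E2f1 and 264 bp from a start of the neighbouring gene Archease, so that its nearest start was not one of E2f1.

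At the upstream starts of E2f1, which belong to isoforms E2f1-RB and E2f1-RF, a call of 157.1 lay 143 bp upstream of the E2f1-RB start and in the 5′ UTR of E2f1-RF. Its signals were 89.9 in replicate 1 and 68.9 in replicate 2. A call of 192.7 lay in the coding sequence, over the repeat shown above, with 113.4 and 85.6 in replicates 1 and 2. The lowest call, of 3.9, came from a peak that overlapped that one, and no ranked call of either replicate matched it. Of the 11 calls, 6 had CAACAAC within 50 bp of the summit, with signals between 72.7 and 192.7.

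Support from the replicates was uneven at E2f1. A thresholded peak of both replicates matched 3 of its 11 conservative calls, replicate 1 alone matched 6, and neither matched 2. The call at Archease was counted as matched by replicate 1 alone (178.1), although a replicate 2 summit of 104.4 lay 59 bp away in a peak with too little overlap.

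E2f1 also differed from the other members in what the thresholded lists left out. The ranked conservative list held 20 calls in its window that passed the IDR of 0.01, and 9 of them were in no thresholded list. None of the other 9 members had such a call, and 1.22% of protein-coding genes did. Over the genome 176 of 5868 calls past the threshold were missing in this way, and 3 genes had 9 or more of them, namely E2f1, its neighbour InR and tara. The thresholded lists were derived from 1 more input file than the ranked lists, per the deposited file records, and its part in the missing calls was not tested.

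Of the 9 calls, 3 lay within E2f1 and 6 lay beyond its 3′ end in or beside InR, the insulin receptor gene. The strongest, with a signal of 730.3, had its summit at 21618536, in an intron of InR and 500 bp from a start of InR. The ranked lists of the replicates gave this site 467.8 and 278.9, both past the threshold. Its signal would exceed that of every listed E2f1 call. Within E2f1, a call of 156.0 lay 69 bp inside the start of E2f1-RA and E2f1-RE (82.1 in replicate 1, 74.8 in replicate 2). A further call, of 248.7, lay in an intron 1847 bp downstream of the E2f1-RD start (146.0 and 102.1), and the last reached 70.2. Counted with these, 4 of 5 distinct E2f1 starts had a call within 500 bp, against 2 of 5 in the conservative list alone. The start of E2f1-RC had relaxed calls of up to 48.0. Of the 9 calls, 4 had CAACAAC at the summit. Replicate 1 had 7 such missing calls in this window and replicate 2 had 5, so the pattern was present in each replicate's own pair of lists.

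Dp, the partner of E2f1 (FBgn0011763, 2R, 13222433 to 13228202, plus strand), had 3 conservative calls inside the gene. A call of 158.8 lay 241 bp inside the Dp-RC start, with 91.0 in replicate 1 and 84.5 in replicate 2, and both replicate lists held it. A call of 75.5 lay 169 bp upstream of the Dp-RB start, with 40.8 and 40.3, and replicate 1 alone listed it. The weakest call, of 61.6, had the repeat at its summit, was in neither replicate list (31.5 and 27.7), and lay slightly nearer to a start of Fsn (564 bp) than to one of Dp (568 bp). The start of Dp-RA, the first of the gene, had a relaxed call of 37.3 and no conservative one.

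dap, the inhibitor of CycE with Cdk2 (FBgn0010316, 2R, 9712321 to 9716256, plus strand), had its strongest call upstream of its single start rather than at it. That call had a signal of 503.0, lay 687 bp upstream in intergenic sequence and held CAACAAC. The replicates gave it 280.0 and 245.0, at ranks 363 and 261, and both listed it. At the start itself a call of 116.7 lay 57 bp inside the gene, held a GAGAGAG word and no CAACAAC, and was listed by replicate 1 (74.7) but not by replicate 2 (42.4). The weakest call, of 58.1, lay 3161 bp upstream, nearest to CG10459, and was in neither replicate list.

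CycD, the growth cyclin (FBgn0010315, X, 15906822 to 15909676, minus strand), had no thresholded call in any of the 4 lists. The ranked conservative list held 7 relaxed calls in its window, with signals of up to 38.0. The strongest relaxed call was 21.0 in replicate 1 and 16.0 in replicate 2. None of the 7 had CAACAAC within 50 bp, although the word occurred at 5 places in the window. Read depth is unknown here, so a site too weak for the threshold cannot be told apart from no site.

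Among the mitotic regulators, CycA (FBgn0000404, 3L, 11826719 to 11833578, minus strand) had the highest signal. Its strongest call, of 1201.7, had its summit at 11833194 in the 5′ UTR, 384 bp inside the single start that isoforms CycA-RA and CycA-RC share. The replicates gave it 709.2 and 489.0, at ranks 38 and 41, and it was rank 37 of all conservative calls. CycA stood at rank 73 among protein-coding genes by highest signal, the first of the 10 members. A call of 113.0 in an intron had 60.2 and 50.3 in the replicates and no CAACAAC within 50 bp, and its nearest start was that of CG7264. All 3 calls of CycA were listed by both replicates, which held for no other member with more than 1 call.

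CycB (FBgn0000405, 2R, 22803521 to 22806948, minus strand) had no call within the gene or at any of its 3 starts. Its stronger call, of 312.2, lay 595 bp beyond the 3′ end and 3377 bp from its nearest start. That was also the nearest protein-coding start of any gene. The replicates gave 125.5 and 186.2, at ranks 1123 and 455, so that replicate 2 was the higher, and no CAACAAC lay within 50 bp or 100 bp of the summit. The other call, of 95.4, lay 162 bp from a start of blw and was in neither replicate list. Relaxed calls near the starts of CycB reached 47.3.

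CycB3 (FBgn0015625, 3R, 24867934 to 24870816, minus strand) had 1 call, of 66.5, in its 5′ UTR 259 bp inside its single start. The replicates had 35.7 and 34.0 at that place, both short of the threshold, so the call was in the conservative and pooled lists only. Cdk1, the mitotic kinase (FBgn0004106, 2L, 10384739 to 10386262, minus strand), had 1 call in its window, of 124.9. It lay 2657 bp beyond the 3′ end of Cdk1, in the 3′ UTR of gny and 181 bp from a start of CG5096. The replicates gave it 61.2 and 62.6, and the Cdk1 start had only a relaxed call of 44.8.

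stg (FBgn0003525, 3R, 29251826 to 29255800, minus strand) had 1 conservative call, of 154.8, in its intron 1195 bp inside the stg-RA start, with the repeat 26 bp from the summit. Both replicates listed it, with 95.6 and 69.0. Neither start of stg had a conservative call within 500 bp, and the relaxed calls there reached 41.5. With a window of 10000 bp in place of 5000 bp, 2 conservative calls were counted for stg, 3 for CycB and 3 for CycB3.

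**Figure D3:**
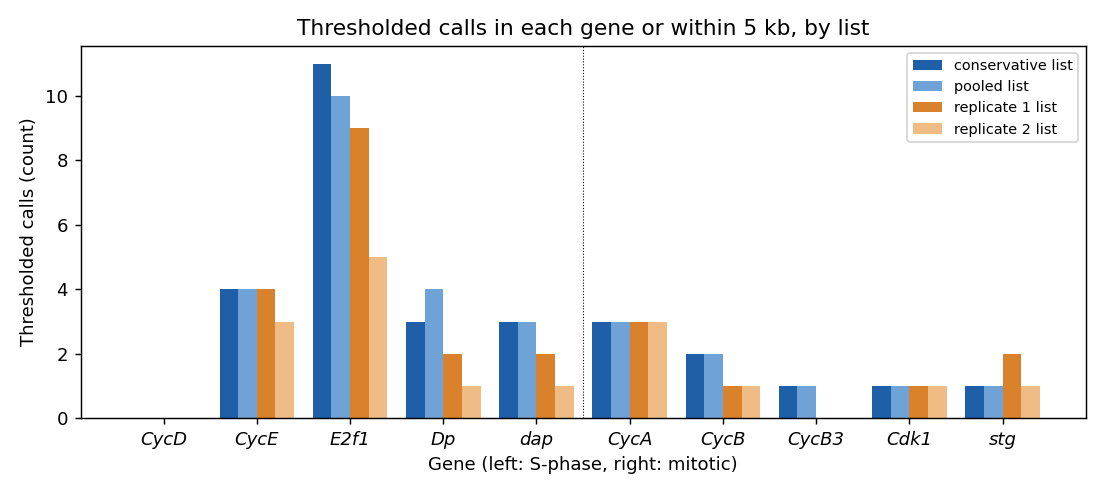
Number of thresholded calls in each gene or within 5 kb, with 4 bars per gene for the conservative, pooled, replicate 1 and replicate 2 lists, S-phase genes on the left and mitotic genes on the right. E2f1 has 11, 10, 9 and 5 calls, CycA has 3 in every list, CycB3 has none in either replicate list and CycD has none in any.

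By class, the S-phase genes had 21 conservative calls and the mitotic genes 8. Of the S-phase calls, 18 of 21 lay inside the gene, where the genes made up 59.6% of the windows. Of the mitotic calls, 4 of 8 did, where the genes made up 27.2%. No difference between the classes was tested. The nearest protein-coding start belonged to the member itself for 18 of 21 S-phase calls and for 4 of 8 mitotic calls. E2f1 carried much of the first count, since the other 4 S-phase genes had 10 calls, and CycA carried 3 of the 8. Per 10 kb of window there were 1.70 calls at the S-phase genes and 1.16 at the mitotic genes, or 1.37 and 0.965 without E2f1 and CycA.

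Signal did not follow the same order. The median was 106 over the S-phase calls and 140 over the mitotic calls, with ranges of 3.9 to 944.9 and 66.5 to 1201.7 that overlapped over most of their length. CAACAAC was at the summit of 10 of 21 S-phase calls and 3 of 8 mitotic calls, and at 13 of 29 in all (44.8%), against the 45.1% of all conservative calls. The share at the members was therefore the same as the background to within 1 call. Median signal was 155 for the 13 member calls with the word and 93.5 for the 16 without it, and the medians over all conservative calls were 155 and 82.9. The strongest call without the word was that of CycB (312.2). Of the 8 member calls within 500 bp of a start of the member, 2 had the word, and they were the strongest calls of CycE and CycA. The share with the word among all conservative calls near a start was not computed. Among the strongest calls of each member it was absent at E2f1, Dp, CycB, CycB3 and Cdk1.

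Each of the other words searched was at 4 or fewer of the 29 member summits. GAGAGAG was within 50 bp of 3 of 29 summits (4.90% of all conservative summits), at E2f1 and dap. Among the 3 was the E2f1 call of 3.9, which no ranked call of either replicate matched. CAACAGC was at 4 (16.1%) and CAGCAAC at 2 (18.5%). The DRE word TATCGATA (0.720%) and the Zelda word CAGGTAG (0.632%) were at none, which says only that these letters are not in the windows searched. Both strands were searched, and CAACAGC and CAGCAAC can overlap CAACAAC.

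Most copies of CAACAAC in the windows had no call. The 10 windows held 115 copies, counting overlapping ones, and 26 of them lay within 50 bp of a conservative summit. Over the genome 11.4% of 57895 copies did. The windows also held more calls of any kind, 1.51 per 10 kb against 0.414 over the genome, so these shares cannot be compared directly. The share over the windows of all protein-coding genes was not computed. CycA had 7 of its 17 copies at a call, E2f1 12 of 50, CycE 3 of 13, and CycB 0 of 5. Among the 204 relaxed calls in the windows 5.39% had the word, against 4.28% of all relaxed calls.

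Thresholded peaks of both replicates matched 14 of the 29 member calls, against 40.7% of all conservative calls, and neither replicate matched 6, against 27.3%. Replicate 1 matched 17 of 21 S-phase and 6 of 8 mitotic calls, and replicate 2 matched 8 of 21 and 6 of 8. Without E2f1, replicate 1 matched 8 and replicate 2 matched 5 of 10 S-phase calls. The list of replicate 1 was also the longer, at 4519 thresholded calls against 3678. The share of all conservative calls matched by each single replicate was not computed. Both replicates matched 8 S-phase calls and 6 mitotic calls. In 26 member calls with an overlapping ranked call in each replicate, replicate 1 had the higher signal in 24, and the exceptions were CycB and Cdk1. Among the 4861 conservative calls with a ranked call in each replicate, replicate 1 was higher in 64.1%. The signals of the lists were not put on a common scale, so ranks within a list are given beside them for the strongest calls.

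**Figure D4:**
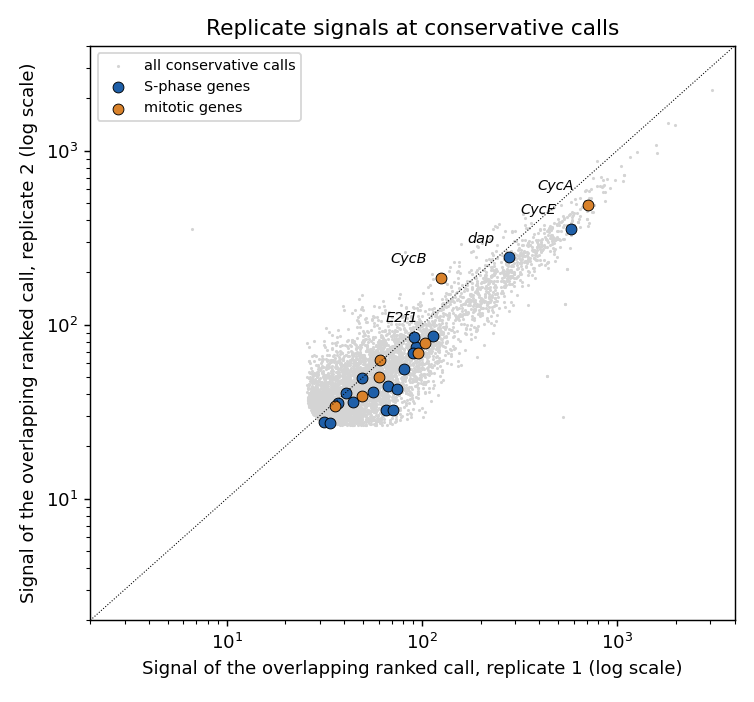
Signal of the overlapping ranked call in replicate 1 (horizontal) and replicate 2 (vertical), both on log scales, for S-phase genes, mitotic genes and all conservative calls in grey. The dotted line marks equal values. CycA, CycE and dap lie high in both replicates, and the call at CycB lies above the line, as does that at Cdk1 by a small margin.

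Other genes of the cycle gave a wider view of the pathway. Of 61 further genes in 7 lists, 35 had a conservative call in the gene or within 5000 bp (57.4%, against 44.2% of protein-coding genes), and 6 had one at a start of their own (9.84%, against 15.9%). In the list of G1 and S-phase control 7 of 11 had a call and 3 had one at a start. They were led by ago, which encodes the ubiquitin ligase subunit that marks CycE for destruction (1052.6, 269 bp from its start). Cks85A (647.0) and fzr, an activator of the anaphase-promoting complex (447.3, 41 bp from its start), followed. The Cks85A call was nearer to a start of TMEM216 (106 bp).

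Replication genes had 8 of 15 with a call and 2 at a start. The leading signals in their windows lay at other genes, with that of Mcm6, a helicase subunit (734.8), 7 bp from a start of Fum1, that of Orc2 (165.8) in the 3′ UTR of rdx, and that of RnrS (161.1) 43 bp from a start of CG8298. Mitotic entry genes had 6 of 10 with a call and none at a start. The call of the kinase gene polo (478.7) lay 503 bp from its start, just outside the limit, and that of trbl (235.0) lay in its intron. The call of twe, the germline Cdc25 (83.1), lay 96 bp from a start of EndoGI. Mitotic exit and spindle checkpoint genes had 4 of 9, and none had a call at a start. The call of thr (765.5) lay 3459 bp from its own start, over an exon of lncRNA:CR44417. The call of Sse (136.2) lay 240 bp from a start of sif, and that of Bub3 (75.1) in coding sequence of Cap-D2.

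Damage checkpoint genes had 3 of 4 with a call, namely tefu (602.5), mei-41 (159.5) and lok (52.7), and only mei-41 had one at a start. The mei-41 call lay 201 bp from its own start and 59 bp from a start of TH1, and the lok call 122 bp from a start of bwa. The tefu call was 128 bp from a start of Art3 and was also the call of Caf1-55. Genes of the dREAM complex, which represses E2F targets, had 3 of 4 (Caf1-55 602.5, mip130 432.9, mip120 83.7) and none at a start. The nearest start was that of Ocrl for the mip130 call (293 bp) and that of drk for the mip120 call (224 bp). The remaining cyclins and Cdk7 had 4 of 8, led by CycH (657.0, 10 bp from a start of eIF2A), CycG (304.8, 4 bp from a start of Mnat9) and CycY (175.4, in coding sequence of Pde1c), and none at a start.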

How the data were processed

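Chromatin was immunoprecipitated from 2 biological replicates of whole embryos and sonicated to fragments of 200 to 800 bp, per the labels. The authors deposited peak lists on dm6, and neither an aligner nor a peak caller is named in the sources used here. For each call the authors deposited a signal value whose scale is not stated, a score (at least 830 for every thresholded call) and, in the ranked lists, −log10 of the global IDR (at least 2 past the threshold). The authors called a conservative and a pooled list from both replicates and 1 list per replicate. Which replicate each replicate column of the conservative ranked list belongs to is not stated, so replicate values were read from each replicate's own lists. Read depth is unknown, so no interval that needs it is given.

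Summits (column 2 plus column 10, written 1-based) on 7 chromosome arms were assigned to genes of Ensembl release 115. All calls lay within the arm lengths of the RefSeq release 6 sequence. A replicate matched a call at a reciprocal overlap of at least 0.5. CAACAAC was searched within 50 bp of summits on both strands. There was 1 group, so no test was made, and counts stand beside the share over all protein-coding genes or all conservative calls. The members and lists were chosen with earlier results of these data known. All 10 members were named, and of each other list up to 3 genes in order of highest signal. Sequences were to be those of each member's strongest call at a start or in an intron, off arm 2R. Of these, the calls of E2f1 and CycB3 lie in a 5′ UTR without CAACAAC and are not shown. The other stretches were chosen after their values were seen, for holding CAACAAC or the E2F-type letters. No call was shared between members, and calls of 1 gene are not independent. The assignment was tested on simulated data and recovered 200 of 200 genes. Python 3.11.15, numpy 2.4.6, pandas 2.3.3 and matplotlib 3.10.9 were used. The sequence and position of 1 CycA call are not reported here.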

Additional observations from a re-analysis of the deposited data

How the results depend on the processing

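The 9 summary counts and shares kept within 1.5 times their value in 73 of 85 recalculations. With the list of 1 replicate in place of the conservative list, the windows held 16 to 24 calls against 29, with 4 to 7 at a start against 8 and 10 to 17 at S-phase genes against 21. The lower value came each time from replicate 2, with replicate 1 left out. At an IDR of at most 0.001 there were 18 calls in all, 5 at a start and 12 at S-phase genes, and 29.4% of protein-coding genes had a call. With the gene alone as the window, the mitotic genes had 4 calls and 15.3% of protein-coding genes had one. With only those calls whose nearest protein-coding start was the member's, the mitotic genes also had 4. In recalculations chosen after the data were seen, the S-phase genes had 10 calls without E2f1 and the mitotic genes 5 without CycA. The cause of each difference beyond fewer calls or genes being counted was not tested. Under each of these settings the S-phase genes had more calls than the mitotic ones. With a window of 10000 bp the S-phase genes still had 21 calls, while the mitotic genes had 12 against 8. The windows of the S-phase genes were also longer, at 123.8 kb against 68.7 kb with 5000 bp on each side of the gene. In the list of replicate 2 the counts were 10 and 6, a smaller excess in proportion than that of window length. No paired analysis was possible because there was 1 group and no test. Precision is limited by 2 replicates, and without read depth a weak site cannot be told from none.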
